A study of Mus musculus with 8 samples.

Results

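The genes described here encode the machinery that docks and fuses transport vesicles with their target membranes: the SNARE proteins (vesicle-associated membrane proteins, syntaxins and the SNAP-25 family), the syntaxin-binding proteins, the synaptotagmins, complexins, synapsins, Rab3 GTPases, the synaptic vesicle membrane proteins of the Sv2, synaptogyrin and synaptophysin families, and the factors Nsf, Rims1 and Unc13a. Members were chosen by gene symbol in the platform's annotation. The rule uses no measured values, but earlier results of these data were known when it was made. They came to 71 probes of 65 genes among the 21582 probes of 15094 named genes on the array. A log2 ratio on at least 3 arrays of each dye orientation was available for 57 of the 71 probes, from 53 genes, out of 15345 such probes on the array.

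During exocytosis a SNARE on the vesicle zippers with SNAREs on the target membrane and pulls both membranes together. Synaptotagmins couple that fusion to calcium at synapses, complexins clamp and promote it, Rims1 and Unc13a prepare vesicles at the active zone, and Nsf takes spent SNARE complexes apart. Neurons use a dedicated set of these proteins for transmitter release, while related family members serve the Golgi apparatus, endosomes and secretion in all cells.

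RNA came from neurospheres, which are floating clusters of dividing neural precursors, made here from mouse cortex at gestational day 12.5. The ethanol-exposed cultures received 320 mg/dl ethanol for 5 days while they proliferated in serum-free medium with 20 ng/ml bFGF, 20 ng/ml EGF and 0.15 ng/ml LIF, and were then differentiated for 3 days without ethanol by withdrawal of EGF and LIF; the control cultures were differentiated by the same withdrawal and had no ethanol. Both RNAs were hybridised together on each of 8 arrays, with ethanol-exposed RNA in Cy5 on 4 arrays (replicates 5 to 8) and in Cy3 on the other 4 (replicates 1 to 4). No label says that the arrays hold separate cultures. The p-values therefore cover array-to-array spread, and all of it could be technical.

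The comparison of ethanol-exposed with control cultures asks whether exposure during proliferation leaves differences after differentiation. What stands in the numerator of the deposited ratio is not stated. A pair of quantities was thus fitted for every probe: a shared part, the mean of both orientations, and a turning part, the Cy5 orientation's mean minus the shared part, which is positive where the ratio was higher with ethanol-exposed RNA in Cy5. If the numerator is always the same condition, the shared part holds the ethanol effect and the turning part the dye effect; if it is always the same dye, it is the reverse. All signs are as deposited, and neither sign says that a transcript was higher or lower in ethanol-exposed cells. Ratios hold no levels, so that the labelled cell type could not be checked against its markers. In such cultures fewer cells of a type and less RNA per cell cannot be told apart.

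In the shared part 12 of 17 probes of a core list of neuronal exocytosis genes were negative (70.6%, beside 53.9% of all probes). Among them were Rims1, Sv2a, Stx1a, Syt1 and Rab3a at -2.004 to -0.86 on the log2 scale. Syn1, Syt2, Cplx1, Syn2 and Nsf of the same list were positive, at 0.03 to 0.52. Of the 57 member probes none passed an adjusted p of 0.05 by limma, as none of the 15345 probes did (background 0%). With an unadjusted p under 0.05 there were 12 member probes, 10 negative and 2 positive, against a background of 13.9% of all probes (9.01% negative and 4.88% positive). Their number is 21.1% of the members tested. The median shared part was -0.12 over the members, with 35 negative and 22 positive, and -0.06 over all probes, of which 53.9% were negative.

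Of the 10 negative probes 7 belonged to this core list of neuronal exocytosis genes, of which 16 genes were measured by 17 probes. That list was drawn up by function with earlier results of these data known, so that its count is a description and not independent evidence. Of these 17 probes 12 were negative and 7, both Rims1 probes among them, had an unadjusted p under 0.05. All 7 were negative, beside the background of 9.01%. The 7 became 4 to 6 when single arrays were left out, with 4 without replicate 6 and 4 without replicate 7. The background of negative probes was then 6.99% to 9.82%. They became 4 of the 13 core probes with values on all 8 arrays (background 11%), and 5 of 17 with each array's highest value kept (background 8.07%). The core's median shared part was -0.73 (-0.83 to -0.62 when single arrays were left out). It was -0.46 with values on all 8 arrays required, and -0.46 with each array's highest value kept. The other 40 member probes had a median of -0.08, with 23 negative (57.5%, beside 53.9% of all probes). Of these 40 probes 5 had an unadjusted p under 0.05 (12.5%, beside 13.9% of all probes), 3 negative and 2 positive. Both shares are near those of the array as a whole. The difference between both sets of genes was not tested.

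**Figure D1:**
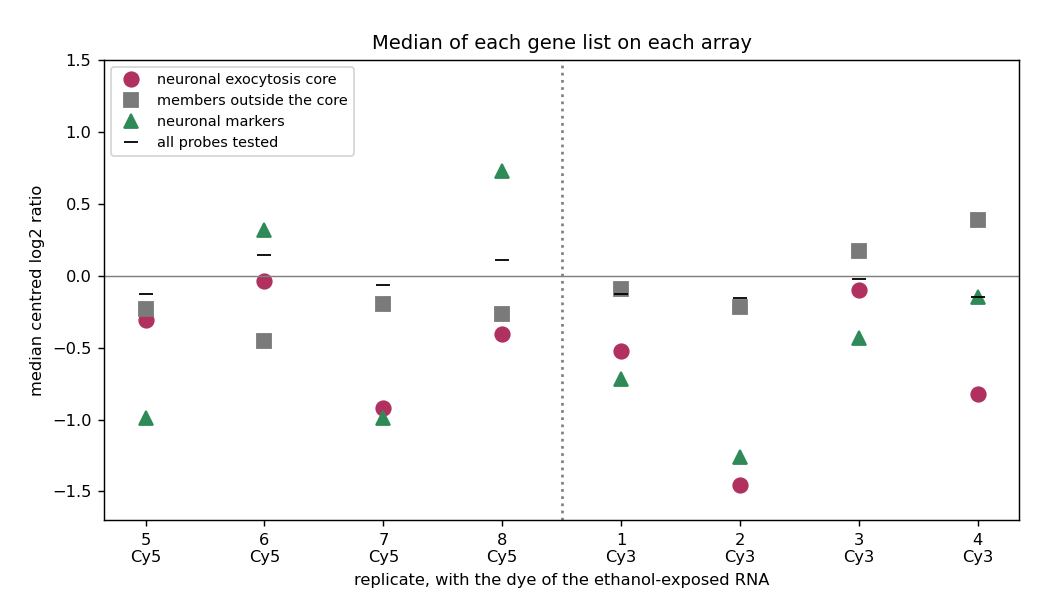
Median centred log2 ratio (vertical axis) of the neuronal exocytosis core, the other members, the neuronal marker list and all probes tested, on each array (horizontal axis, arrays with ethanol-exposed RNA in Cy5 on the left and in Cy3 on the right). The core's median is below 0 on all 8 arrays, from -1.46 on replicate 2 to -0.04 on replicate 6.

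Array by array, the core's median was -0.31, -0.04, -0.92 and -0.41 on replicates 5 to 8, with ethanol-exposed RNA in Cy5, and -0.52, -1.46, -0.10 and -0.82 on replicates 1 to 4, with it in Cy3. It was thus below 0 in both orientations, which overlapped. The members outside the core had medians of -0.235, -0.456, -0.197 and -0.267 on the Cy5 arrays. On the Cy3 arrays theirs were -0.094, -0.219, 0.174 and 0.39. On replicate 6 their median was lower than that of the core. The median of all probes tested lay between -0.13 and 0.14 on the Cy5 arrays and between -0.15 and -0.02 on the Cy3 arrays. A list of 13 neuronal marker genes outside the release machinery, 8 of them measured, had medians of -0.99, 0.32, -0.99 and 0.73 on the Cy5 arrays and of -0.72, -1.26, -0.44 and -0.15 on the Cy3 arrays. Its measured genes had a median shared part of -0.40, 4 negative and 4 positive, and its members differed in sign. Of its 8 probes 3 had an unadjusted p under 0.05 (37.5%), all negative. That share was 41.2% of the core probes, also all negative, and 13.9% of all probes (9.01% negative). The migrating-neuron gene Dcx read -1.88, the RNA-binding protein gene Elavl4 -1.69 and the intermediate filament genes Nefm and Ina -1.25 and -1.15, whereas the microtubule-associated protein genes Mapt and Map2 read 0.81 and 0.42, the growth cone gene Gap43 0.46 and the neurofilament gene Nefh 0.36. Astrocyte markers had a median of -0.66 (8 of 10 probes negative), neural progenitor markers 0.53 (8 of 11 positive) and oligodendrocyte lineage markers 0.11 (6 of 10 positive), while those of microglia and macrophages, endothelial and mural cells and meningeal fibroblasts read -0.17, -0.14 and -0.21. An unadjusted p under 0.05 was reached by 3 of 10 astrocyte probes (30%), all negative, and 2 of 11 progenitor probes, 1 of each sign. The same held for 1 of 10 oligodendrocyte lineage probes and 1 of 4 microglia and macrophage probes, both negative. None of the endothelial, mural and meningeal probes reached it. The part of these cell types in the members' values was not tested.

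Among the SNAREs of the plasma membrane, Stx1a, the syntaxin of the synaptic release site, read -2.22, 0.24, -1.75 and -0.82 with ethanol-exposed RNA in Cy5 and -2.29, -1.13, -0.30 and -1.53 with it in Cy3. It was negative on 7 of 8 arrays, and the orientations overlapped. Its shared part was -1.22 ± 0.37 (SE of the fit, n = 8 arrays), with an adjusted p of 0.231. The related Stx2, Stx4a and Stx11, which serve secretion outside the synapse as well, read -0.44 ± 0.31, -0.24 ± 0.34 and -0.55 ± 0.76, and Stx19 read 0.59 ± 0.62. Their signs differed between arrays. Snap25, the partner of Stx1a at the synapse, read 0.09, 0.41, 0.78 and 0.67 in Cy5 and 0.76, -1.46, 0.45 and -2.08 in Cy3, which gave a shared part of -0.05 ± 0.38. So Snap25 was positive on 6 of 8 arrays, unlike Stx1a. Its ubiquitous relatives Snap29 and Snap47 read -0.34 ± 0.39 and 0.80 ± 0.65.

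Of the vesicle SNAREs, 4 of 7 probes had an unadjusted p under 0.05 (background 13.9%), 3 negative (background 9.01%) and 1 positive (background 4.88%), and 2 of the 4 were probes of Vamp5 with opposite signs. Vamp1, a synaptic vesicle SNARE, read 0.86, -1.24, -4.85 and -1.44 in Cy5 and -1.86, -1.34 and -0.64 in Cy3, without a value on replicate 1. It was negative on 6 of 7 arrays, and its shared part was -1.47 ± 0.60 (adjusted p = 0.329). A second Vamp1 probe had too few values for the fit and was negative on 5 of the 6 arrays that gave one. Vamp2, the main vesicle SNARE of forebrain synapses, read -1.15, -0.39, -1.79 and -1.19 in Cy5 and -0.08, -2.49, 0.68 and 0.61 in Cy3. Its shared part was -0.73 ± 0.40, with all Cy5 arrays negative and the Cy3 arrays split. Vamp4, which works between the trans-Golgi network and endosomes, read -1.21, 0.39, -2.18 and -0.70 in Cy5 and -1.82, 0.07, -2.21 and -1.41 in Cy3. That gave -1.13 ± 0.38 (adjusted p = 0.254), negative on 6 of 8 arrays. Vamp3, of recycling endosomes, and Vamp8, of late endosomes and regulated secretion outside neurons, read 0.98 ± 0.57 and 0.12 ± 0.37. Vamp3 read 5.12 on replicate 5, while the other arrays of that orientation lay between -0.23 and 0.30.

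Vamp5, a SNARE-like protein of muscle and other cells, was measured by 2 probes that gave opposite signs. Probe AF119384 read 0.71, 0.47, -0.34 and 2.37 in Cy5 and 3.35, 0.77, 1.999 and 0.13 in Cy3, for a shared part of 1.18 ± 0.43 (adjusted p = 0.280). Probe NM_016872 read -1.02, -1.87, 0.48 and -0.96 in Cy5 and -1.44, -3.07, 0.43 and -0.45 in Cy3, for a shared part of -0.99 ± 0.43 (adjusted p = 0.344). The first probe exceeded the second on 7 of 8 arrays, by a mean of 2.17 ± 1.82 (SD, n = 8; exact sign-flip test, two-sided p = 0.0234, adjusted p = 0.0938 over the 4 pairs of probes compared). No single value can therefore stand for Vamp5.

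**Figure D2:**
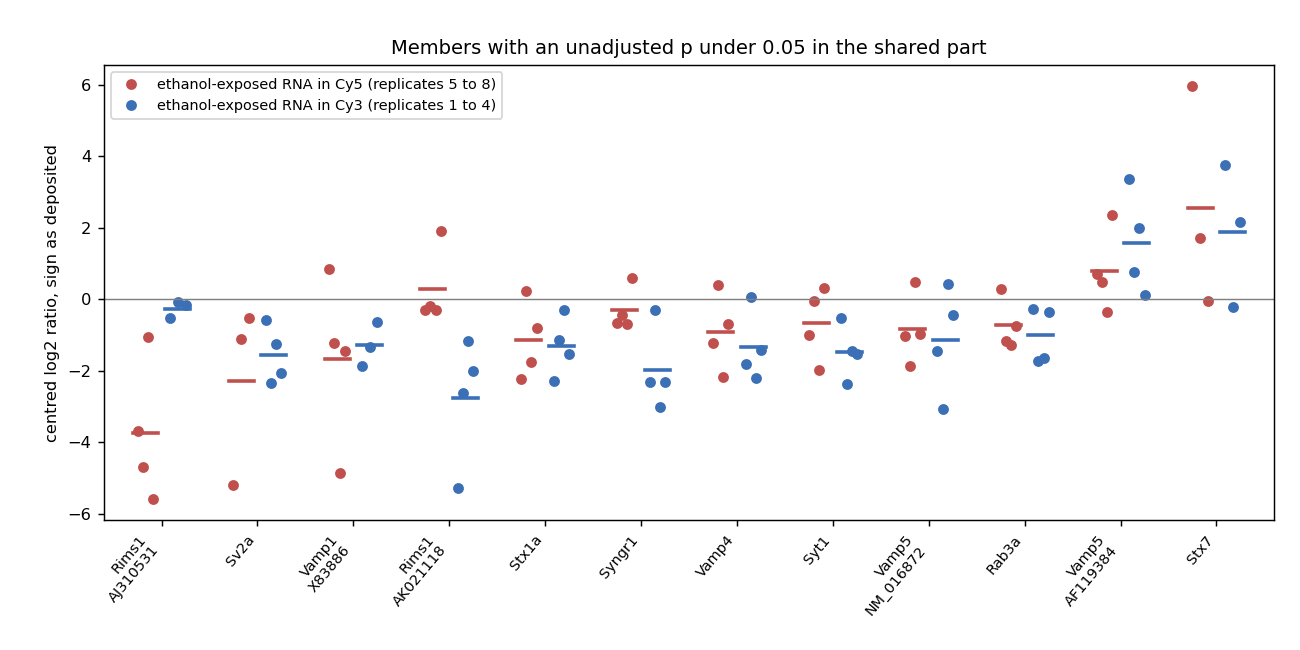
Centred log2 ratios (vertical axis, sign as deposited) of the 12 member probes with an unadjusted p under 0.05 in the shared part, ordered along the horizontal axis by that part; each point is an array, red with ethanol-exposed RNA in Cy5 and blue with it in Cy3, and bars are means. From Rims1 at -2.004 to Rab3a at -0.86 the 10 leftmost probes are negative, and Vamp5 (AF119384) and Stx7 are positive.

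The 7 probes of inner-membrane syntaxins had a median shared part of 0.16, and 1 of them, that of Stx7, had an unadjusted p under 0.05 (14.3%, beside 13.9% of all probes). Stx7, a late endosomal syntaxin, read 5.97, 1.72 and -0.05 in Cy5 and 3.74, -0.22 and 2.15 in Cy3, without values on replicates 8 and 2. Its shared part was 2.22 ± 0.82 (adjusted p = 0.300), the highest of the members. It rested on 6 arrays, 4 positive, and ranged from 1.36 to 2.87 when single arrays were left out. Stx16, described with the turning part, was at 1.02 ± 0.52. Stx5a, Stx6, Stx17 and Stx18, of the Golgi apparatus, endosomes, autophagosomes and endoplasmic reticulum, lay between 0.05 and 0.23, each less than 1 SE from 0. The endosomal Stx12 was the lowest at -0.57 ± 0.38. Stxbp3 and Stxbp4, which bind syntaxins outside the synapse, read -0.45 ± 0.65 and -0.15 ± 0.56.

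Of the 13 synaptotagmin probes tested, Syt1 alone had an unadjusted p under 0.05 in the shared part. Syt1, the fast calcium sensor of forebrain synapses, read -1.01, -0.04, -1.97 and 0.32 in Cy5 and -0.51, -2.37, -1.44 and -1.52 in Cy3. It was negative on 7 of 8 arrays, with a shared part of -1.07 ± 0.36 (adjusted p = 0.251). The other sensor of fast release, Syt2, read 0.33 ± 0.53, and the highest of the family was Syt3 at 0.70 ± 0.40. The complexin genes were split: Cplx2 read -1.46, -0.21, -2.09 and -0.51 in Cy5 and -0.76, -2.51, 1.62 and -2.14 in Cy3. That gave -1.01 ± 0.47, negative on 7 of 8 arrays, whereas Cplx1 read 0.14 ± 0.34, with 4 arrays on each side.

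Rab3a, the Rab protein of synaptic vesicles, read 0.29, -1.16, -1.28 and -0.74 in Cy5 and -0.28, -1.72, -1.63 and -0.37 in Cy3. It was negative on 7 of 8 arrays and had the shared part nearest to 0 among the 10 negative probes, at -0.86 ± 0.33 (adjusted p = 0.297). Its relative Rab3b, found in endocrine cells as well as neurons, was positive on 7 of 8 arrays, at 0.98 ± 0.46 (adjusted p = 0.376). Rab3c and Rab3d read -0.12 ± 0.52 and -0.54 ± 0.60. The synapsins, which tether vesicles to the cytoskeleton, showed no common sign, with Syn1 at 0.52 ± 0.38, Syn2 at 0.11 ± 0.55 and Syn3 at -1.003 ± 0.85.

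Proteins of the vesicle membrane were negative on 6 of 7 probes (85.7%, beside 53.9% of all probes), with a median of -0.37. Sv2a, a transporter-like glycoprotein of synaptic vesicles, read -5.19, -1.11 and -0.54 in Cy5 and -0.59, -2.34, -1.26 and -2.05 in Cy3, without a value on replicate 8. It was negative on 7 of 7 arrays, as was Rims1 probe AJ310531 (of all probes 1.76% were negative, and 1.84% positive, on every array with a value), with a shared part of -1.92 ± 0.57 (adjusted p = 0.231). Without replicate 5, the lowest array, that part was -1.19. Syngr1, the synaptogyrin of brain synapses, read -0.65, -0.45, -0.69 and 0.60 in Cy5 and -2.30, -0.30, -3.02 and -2.32 in Cy3. Its shared part was -1.14 ± 0.36 (adjusted p = 0.236), negative on 7 of 8 arrays and larger in the Cy3 orientation. The non-neuronal Syngr2 read 1.23 ± 0.74, with 6.74 on replicate 5 against 0.22 to 0.99 on the other Cy5 arrays. Sv2b, Syngr3, Syngr4 and synaptophysin, Syp, lay between -0.58 and -0.09.

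Of the priming and recycling factors, Rims1, an active-zone scaffold that binds Rab3, was the lowest of all members in the shared part. Its probe AJ310531 read -3.67, -4.69, -1.05 and -5.59 in Cy5 and -0.53, -0.08 and -0.16 in Cy3. On replicate 3 it held that array's highest value, which 367 probes had there and which was treated as missing. The shared part was -2.004 ± 0.52 (adjusted p = 0.207), negative on 7 of 7 arrays, and became 0.18 when the highest values were kept as measurements. Probe AK021118 read -0.31, -0.19, -0.30 and 1.90 in Cy5 and -5.27, -2.61, -1.16 and -1.998 in Cy3, for a shared part of -1.24 ± 0.48 (adjusted p = 0.299). Both Rims1 probes were thus negative on average, but the first was low on the Cy5 arrays and the second on the Cy3 arrays. Unc13a, which primes vesicles, and Nsf read -0.46 ± 0.54 and 0.03 ± 0.33, with both signs in each orientation.

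Promoters are shown for the 4 genes with the smallest unadjusted p in the shared part, all negative there, to show what letters these promoters share. The sequences are RefSeq's for GRCm38.p6 and run 5′ to 3′ on the gene's strand from 250 bases before to 50 bases after the start: Rims1 at chr1:22806109-22806408 (minus strand), Stx1a at chr5:135023232-135023531 (plus strand), Sv2a at chr3:96180977-96181276 (plus strand) and Syngr1 at chr15:80091084-80091383 (plus strand). Capitals mark the GC box GGGCGG and the cyclic AMP response element half-site TGACG, each searched on both strands.
Rims1: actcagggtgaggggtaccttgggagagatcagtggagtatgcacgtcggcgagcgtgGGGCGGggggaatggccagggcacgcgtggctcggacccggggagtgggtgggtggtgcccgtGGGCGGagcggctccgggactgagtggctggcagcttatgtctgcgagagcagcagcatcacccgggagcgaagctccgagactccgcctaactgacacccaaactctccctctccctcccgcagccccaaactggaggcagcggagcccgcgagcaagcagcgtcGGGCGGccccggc
Stx1a: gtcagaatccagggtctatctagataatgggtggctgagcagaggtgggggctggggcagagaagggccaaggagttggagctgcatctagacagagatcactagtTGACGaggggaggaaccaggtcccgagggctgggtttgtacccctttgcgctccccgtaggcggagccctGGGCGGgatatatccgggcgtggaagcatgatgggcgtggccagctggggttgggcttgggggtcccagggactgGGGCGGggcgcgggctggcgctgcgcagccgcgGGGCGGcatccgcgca
Sv2a: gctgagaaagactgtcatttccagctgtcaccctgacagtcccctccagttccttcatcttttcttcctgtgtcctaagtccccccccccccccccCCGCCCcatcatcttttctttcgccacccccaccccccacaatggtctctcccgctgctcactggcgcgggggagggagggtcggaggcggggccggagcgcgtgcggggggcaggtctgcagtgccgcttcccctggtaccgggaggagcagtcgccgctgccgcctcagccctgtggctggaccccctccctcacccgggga
Syngr1: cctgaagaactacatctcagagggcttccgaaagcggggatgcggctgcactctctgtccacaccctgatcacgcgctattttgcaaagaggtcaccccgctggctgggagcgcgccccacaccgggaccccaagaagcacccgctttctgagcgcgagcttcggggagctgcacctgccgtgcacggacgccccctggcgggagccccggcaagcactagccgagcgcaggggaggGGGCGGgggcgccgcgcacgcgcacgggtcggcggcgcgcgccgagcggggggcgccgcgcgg

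All 4 windows held a GC box, 3 in Rims1, 3 in Stx1a, 1 in Sv2a and 1 in Syngr1, and their GC content was 69.3%, 66.3%, 68.0% and 72.3%. The half-site TGACG was found once, in Stx1a, and no window held the full element TGACGTCA, the E-box CACGTG, the CCAAT box or the TATA box TATAAA. Of the 65 member genes 52 had an entry, with 68 windows, and a GC box was in 66.2% of those windows, against 35.7% of all 32851 windows in the table. The half-site TGACG, which the full element contains, was in 25.0% of member windows and 20.8% of all windows. The CCAAT box was in 26.5% of member windows and 37.4% of all windows, and the TATA box in 7.35% and 13.6%. These matches are letters in a window and say nothing about binding.

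In the turning part 2 member probes passed an adjusted p of 0.05 by limma, both lower with ethanol-exposed RNA in Cy5, against a background of 1.56% of all probes (0.789% negative). An unadjusted p under 0.05 was reached by 9 probes, 4 positive and 5 negative, or 15.8% of the members, beside a background of 13.8% (8.69% positive and 5.14% negative). The median turning part was 0.14 over the members and 0.11 over all probes, with 32 of 57 positive beside 56.9% of all probes. The orientations did not overlap for 6 member probes, 10.5% of those tested, beside 10.9% of all probes; 2 were higher in Cy5 (background 5.68%) and 4 lower (background 5.21%). Both shares are near those of the array as a whole.

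**Figure D3:**
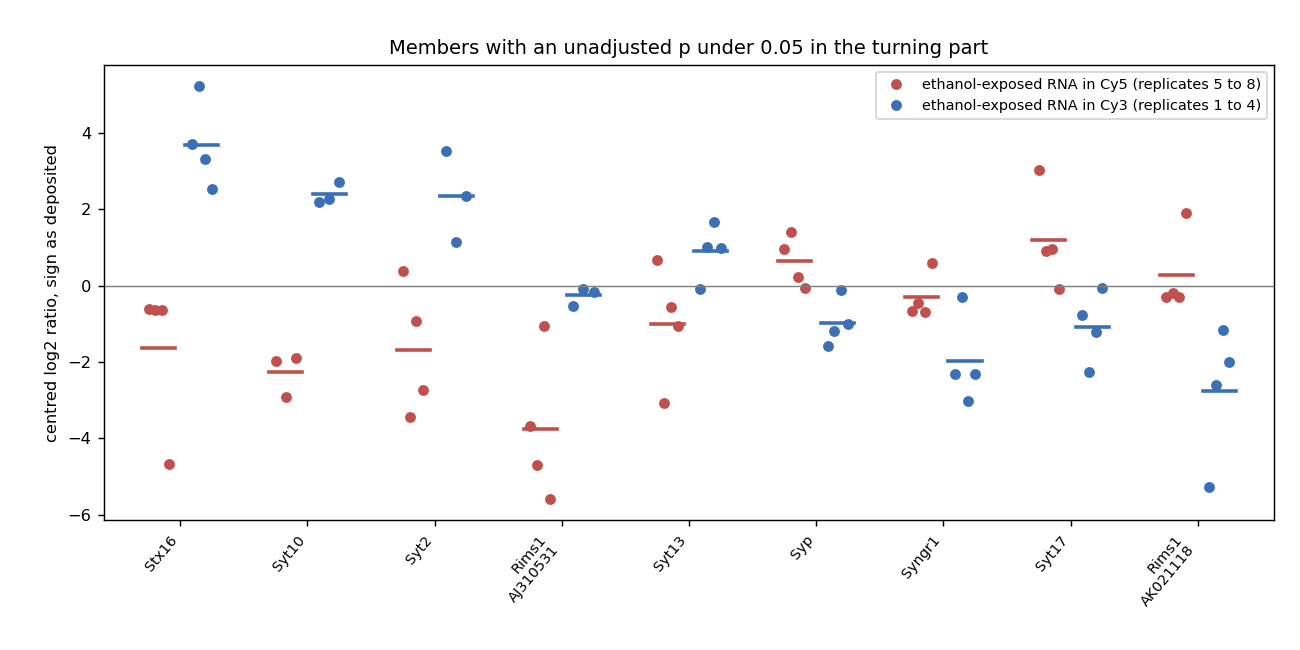
Centred log2 ratios (vertical axis, sign as deposited) of the 9 member probes with an unadjusted p under 0.05 in the turning part, ordered along the horizontal axis by that part; each point is an array, red with ethanol-exposed RNA in Cy5 and blue with it in Cy3, and bars are means. Stx16, Syt10, Syt2 and Rims1 (AJ310531) are lower on every Cy5 array than on any Cy3 array, and Syp and Rims1 (AK021118) are higher.

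Stx16, a syntaxin of the trans-Golgi network, read -0.62, -0.64, -0.63 and -4.68 with ethanol-exposed RNA in Cy5 and 3.70, 5.23, 3.31 and 2.52 with it in Cy3. Every Cy5 array was below 0 and every Cy3 array above it. The turning part was -2.67 ± 0.52, or 6.35-fold in size, with an adjusted p of 0.0335 by limma. An exact permutation of the orientations was run on the 2 called probes only and was not adjusted. Where the orientations do not overlap it must give its smallest possible p, here 0.0286 (two-sided, 4 and 4 arrays). It is therefore no second support. The call held in 8 of 17 alternatives, with values of -2.86 to -2.16 and adjusted p of 0.0237 to 0.0976. It was lost when any 1 of replicates 1 to 7 was left out, though not without replicate 8, the array farthest from the others of its orientation.

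Syt10, a synaptotagmin that in mouse olfactory bulb neurons controls secretion of insulin-like growth factor 1, read -1.97, -2.92 and -1.90 in Cy5 and 2.19, 2.26 and 2.72 in Cy3, without values on replicates 7 and 1. The signs of the orientations were opposite on all 6 arrays. Its turning part was -2.33 ± 0.36, or 5.01-fold in size, with an adjusted p of 0.018 by limma. The exact permutation again had to give its smallest possible p, 0.1 (two-sided, 3 and 3 arrays). The call held in 8 of 15 alternatives, with values of -2.42 to -1.79 and adjusted p of 0.0138 to 0.0845. It was lost when any 1 of replicates 2, 3, 4, 5, 6 and 8 was left out, which are all the arrays with a value.

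Syt2 had the same sign and did not pass: it read 0.39, -3.44, -0.92 and -2.73 in Cy5 and 3.52, 1.14 and 2.34 in Cy3, without a value on replicate 4, for a turning part of -2.003 ± 0.53 (adjusted p = 0.117). Syt13, an atypical synaptotagmin that does not bind calcium, read -0.95 ± 0.42 (adjusted p = 0.352), and its orientations overlapped. Syt17, another atypical member, had the opposite sign: 3.02, 0.91, 0.96 and -0.08 in Cy5 and -0.77, -2.25, -1.22 and -0.06 in Cy3, a turning part of 1.14 ± 0.40 (adjusted p = 0.233). Synaptotagmins thus held both signs, with 6 of 13 probes positive and 7 negative.

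Synaptophysin, Syp, an abundant protein of the synaptic vesicle membrane, read 0.96, 1.41, 0.22 and -0.07 in Cy5 and -1.59, -1.18, -0.12 and -1.01 in Cy3. All Cy5 arrays lay above all Cy3 arrays. Its turning part of 0.80 ± 0.31 did not pass (adjusted p = 0.287), nor did that of Syngr1 at 0.84 ± 0.36 (adjusted p = 0.333). In the other families the turning parts ran from -0.41 for Vamp2 to 0.57 for Vamp8, from -0.51 for Stx2 to 0.83 for Stx11, from -0.69 for Snap29 to 0.54 for Snap25, from -0.05 for Stxbp3 to 0.69 for Stxbp4, from -0.06 for Cplx2 to 0.51 for Cplx1, from -1.76 for Syn3 to 0.37 for Syn1 and from -1.32 for Rab3d to 0.34 for Rab3c. Stx7 had the highest turning part of the inner-membrane syntaxins at 0.33, and Sv2a the lowest of the vesicle membrane proteins at -0.36. None of these reached an unadjusted p under 0.05.

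Other members of the core had small turning parts: 0.09 for Stx1a, 0.39 for Syt1, 0.14 for Rab3a, -0.19 for Vamp1, 0.19 for Syn2, 0.14 for Nsf and 0.48 for Unc13a. Across the 17 core probes 11 were positive, with a median of 0.14. No core probe passed in the turning part, and 4 had an unadjusted p under 0.05 (Syt2, Syp and both Rims1 probes), which is 23.5% beside 13.8% of all probes, with 2 of the 4 from 1 gene.

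**Figure D4:**
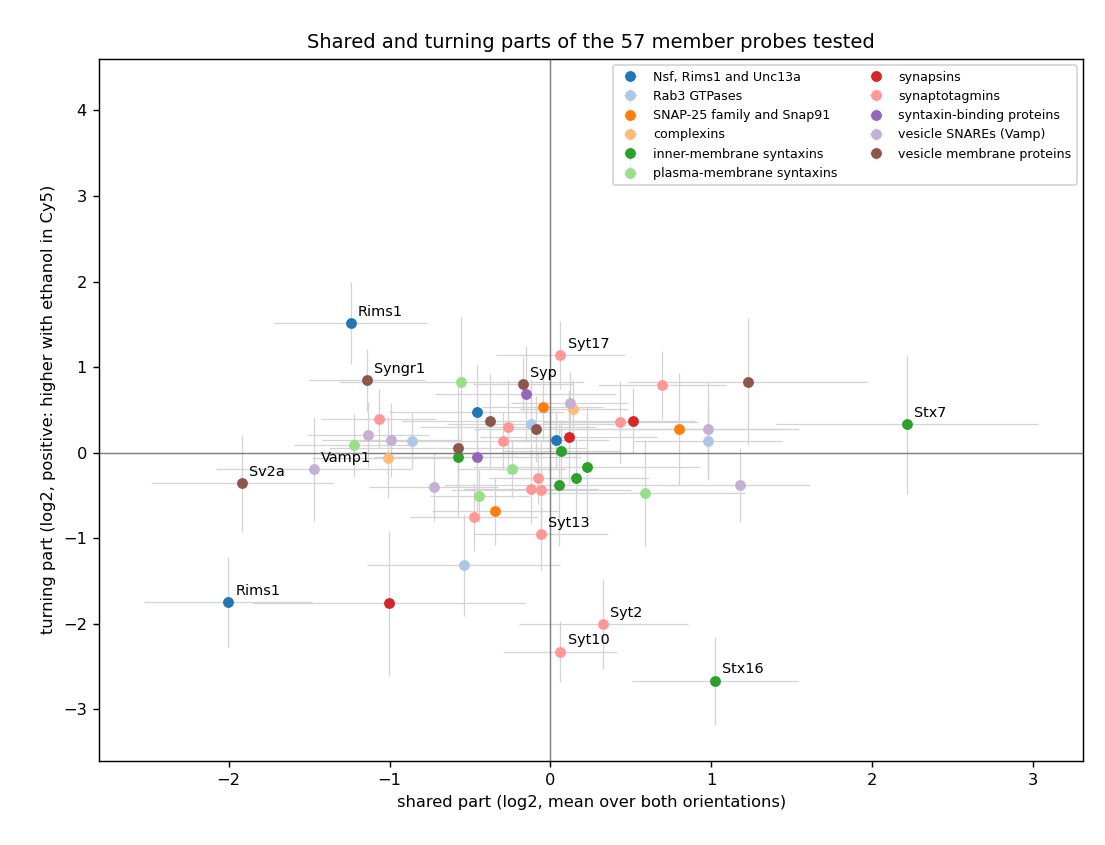
Turning part (vertical axis, positive where the ratio was higher with ethanol-exposed RNA in Cy5) against shared part (horizontal axis), both on the log2 scale, for the 57 member probes tested, coloured by role, with bars of 1 SE of the fit; names mark probes with an unadjusted p under 0.05 in the turning part, and Vamp1, Sv2a and Stx7, the other probes farthest from a shared part of 0. Stx16, Syt10 and Syt2 lie low near a shared part of 0 to 1, and both Rims1 probes lie left, on opposite sides of a turning part of 0.

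The Rims1 probes had turning parts of opposite sign. AJ310531 had a turning part of -1.75 ± 0.52 (adjusted p = 0.166) and AK021118 one of 1.52 ± 0.48 (adjusted p = 0.179), and in each the orientations did not overlap. Without replicate 7 that of AJ310531 was -2.20 and passed (adjusted p = 0.0389). Within arrays AJ310531 minus AK021118 averaged -4.03 ± 2.80 in Cy5 (SD, n = 4) and 3.04 ± 1.51 in Cy3 (SD, n = 3). That difference of -7.06 between the orientations had an exact permutation p of 0.0571 (two-sided, smallest possible 0.0286, adjusted p = 0.229 over 4 pairs). A single value for Rims1 in the turning part would hide this.

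**Figure D5:**
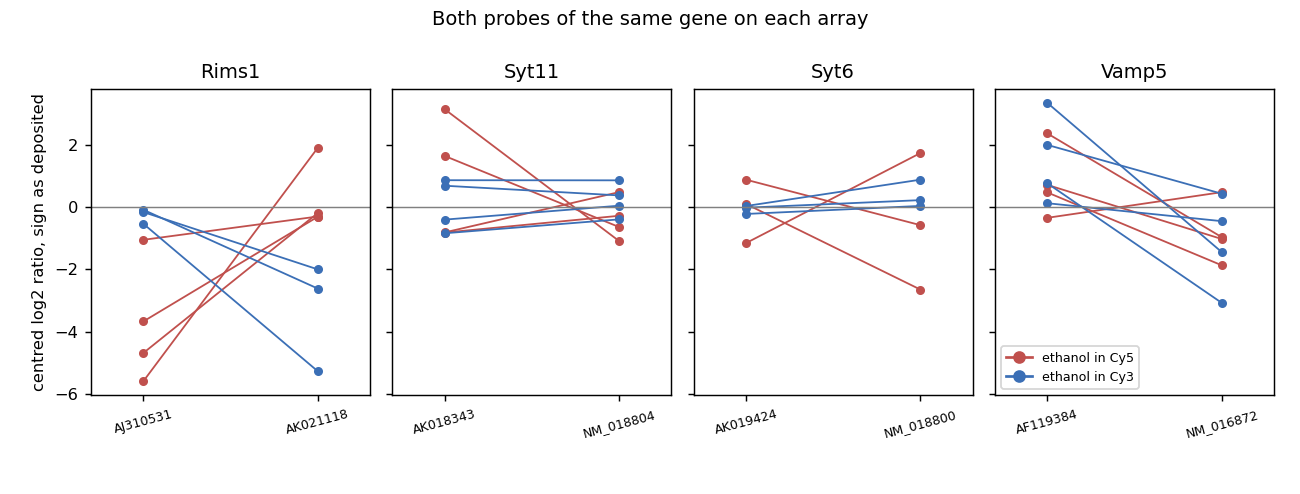
Centred log2 ratios (vertical axis, sign as deposited) of both probes (horizontal axis) of the 4 genes with 2 probes tested, with a line for each array that gave both values, red with ethanol-exposed RNA in Cy5 and blue with it in Cy3. For Vamp5 the first probe is higher on 7 of 8 arrays, and for Rims1 the lines slope up in Cy5 and down in Cy3.

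The remaining pairs of probes showed no such pattern. For Syt11, a synaptotagmin that does not bind calcium, AK018343 read 0.43 ± 0.48 and NM_018804 -0.08 ± 0.30 in the shared part, and 0.36 ± 0.48 and -0.30 ± 0.30 in the turning part. The mean difference within arrays was 0.51 ± 1.83 (SD, n = 8; exact sign-flip test, two-sided p = 0.508). For Syt6, AK019424 read -0.30 ± 0.34 and NM_018800 -0.06 ± 0.56 in the shared part, and 0.14 ± 0.34 and -0.44 ± 0.56 in the turning part. Their difference was -0.01 ± 1.94 (SD, n = 6; exact sign-flip test, two-sided p = 1).

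A list of 110 other genes of vesicle fusion, active zone, transmitter loading and recycling was set beside the members, of which 66 were measured by 72 probes. In the shared part none passed, and 10 probes (13.9%) had an unadjusted p under 0.05, 8 of them negative, the same share as the background of 13.9%. The lowest p belonged to Scfd1, a regulator of SNAREs in traffic between endoplasmic reticulum and Golgi, at -1.79 ± 0.36, and to the synaptophysin relative Sypl2 at -1.21 ± 0.29 on probe AK005920. Both were negative on 8 of 8 arrays, beside 1.76% of all probes negative on every array with a value, and did not pass (adjusted p = 0.145 and 0.179). The other Sypl2 probe, NM_008596, read -0.18 ± 0.48 in the shared part, with 3 arrays positive and 3 negative. Vesicle recycling genes, 19 probes, had a median of 0.20, with 12 positive and 7 negative (36.8% negative, beside 53.9% of all probes). Of the 19 probes 2 had an unadjusted p under 0.05 (10.5%, beside 13.9% of all probes). These were the adaptor subunit Ap2m1 at 0.80 ± 0.33 and the clathrin light chain Clta at 0.73 ± 0.31. The other clathrin light chain, Cltb, read -0.86 ± 0.63, and the heavy chain, Cltc, read -0.91 ± 0.45. The other 3 groups of the list had medians of -0.20, -0.19 and -0.18.

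In the turning part 1 of the 72 probes passed, that of Ppfia3, which encodes the active-zone scaffold liprin-alpha-3, beside 1.56% of all probes. It read 1.65, 4.91, 3.65 and 4.80 in Cy5 and -4.34, -3.13, -3.83 and -3.01 in Cy3, with a turning part of 3.66 ± 0.41 (adjusted p = 0.000731). The orientations lay on opposite sides of 0 on all 8 arrays, and the call held in 16 of 17 alternatives. Without the 3 arrays whose code ends in r the turning part was 3.57 ± 0.58 on 5 arrays, and it did not pass (adjusted p = 0.0835). The smallest p after it belonged to Sypl2 probe NM_008596 at -1.80 ± 0.48 (adjusted p = 0.137), whose other probe read 0.81 ± 0.29, so that both probes of 1 gene again had opposite signs. Next came the vesicular GABA transporter gene Slc32a1 at -1.31 ± 0.37 (adjusted p = 0.145). In total 14 of the 72 probes (19.4%) had an unadjusted p under 0.05, beside the background of 13.8%.

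The 14 member probes outside the fit had values on fewer than 3 arrays of an orientation. They belong to Snap23, Snap91, Stx3, Stx8, Stxbp2, Stxbp5 (2 probes), Sv2c, Syt5, Syt7, Syt8, Syt14, Vamp1 (1 of its probes) and Vamp7. Snap91, an adaptor of clathrin-mediated vesicle recycling, gave a value on 1 array. A Stxbp5 probe gave none with ethanol-exposed RNA in Cy5 and 0.65, 1.39 and 2.17 in Cy3. Syt8 read -0.70, -3.25, -1.64 and -2.19 in Cy5 and 5.67 on the 1 Cy3 array with a value. Snap23, the general partner of non-neuronal syntaxins, read 3.06 and 2.87 in Cy5 and 2.26, -0.44, 0.58 and -1.02 in Cy3. Stx3 read -1.25 and -2.08 in Cy5 and 0.68, 0.01, 3.49 and 0.47 in Cy3. No test was made on these probes.

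Per array, 16274 to 18802 probes had a ratio other than exact 0 or the array's highest value, and 60 to 65 of the 71 member probes did so. The medians of the deposited ratios lay between 0.02 and 0.52 on the Cy5 arrays and between -0.435 and -0.324 on the Cy3 arrays and were set to 0. Arrays correlated more within an orientation than between them, with a mean Pearson's r of 0.211 in Cy5, 0.293 in Cy3 and -0.084 across, over the 15345 probes, which are not independent.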

How the data were processed

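Dual-colour arrays measured ethanol-exposed against control RNA, 8 arrays in all. Per the labels' protocols, RNA extraction used Trizol and RNeasy and labelling the Genisphere 3DNA system (1 µg RNA); scanner, background correction and normalization were not given in the sources used here. Deposited by the authors was 1 log2 ratio per probe and array, with no intensities. Exact 0 and each array's highest value were treated as missing, and each array was centred on its median. Below a ratio of 0.1, 100% of values lie on a grid of 0.001, tolerance 0.0011 on the log2 scale; no member sat at the smallest ratio. Probes with at least 3 values in each orientation were fitted with limma 3.58.1 (R 4.3.3), with 2 coefficients and Benjamini-Hochberg adjustment over all 15345; the script was tested on simulated data. SEs are those of the moderated fit. Member names are the platform's, updated through Entrez numbers (GRCm38.p6 table).

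The members and lists were chosen with earlier results of these data known. Named are members with an unadjusted p under 0.05, the neuronal exocytosis core, the extremes of each role group, genes with several probes, and other pathway genes that passed or had the 2 smallest p. The neuronal markers, Ap2m1, Clta, Cltb, Cltc, Slc32a1, Sypl2 in the turning part and the untested probes given with values were chosen after their values were seen. Alternatives covered centring, missing values, minimum values, scaling, array weights, single arrays, arrays whose code ends in r, and a replicate block. The number of arrays limits precision.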

Additional observations from a re-analysis of the deposited data

Results flagged for a closer look

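Within an orientation, 91 sets of 4 values were searched for an array far from the other 3, and 8 were found, where chance gives about 1 in 20, or 4.5. They fell on 6 arrays, 2 each on replicates 5 and 8 and 1 each on replicates 1 to 4. With ethanol-exposed RNA in Cy5, Syngr2 read 6.74 on replicate 5 (others 0.22 to 0.99), and Vamp3 read 5.12 there (others -0.23 to 0.30). On replicate 8 Stx16 read -4.68 (others -0.64 to -0.62) and Rims1 probe AK021118 read 1.90 (others -0.31 to -0.19). With it in Cy3, Syt6 probe AK019424 read -1.53 on replicate 1 (others -0.22 to 0.04), Vamp8 read -1.47 on replicate 2 (others -0.22 to -0.06), Sv2b read -5.29 on replicate 3 (others 0.34 to 1.24), and Syt4 read 2.64 on replicate 4 (others -0.61 to -0.35).

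The orientations differed by the test itself for Stx16, with a turning part of -2.67, and for Syt10, with one of -2.33.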

How the results depend on the processing

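No member passed in the shared part in any of the 17 alternatives. Leaving out single arrays left 8 to 12 of the 57 members with an unadjusted p under 0.05 there, beside 10.8% to 14.7% of all probes. The 2 calls in the turning part became 0 to 2 without single arrays, and none of these omissions kept both. Without replicate 7 the calls were Syt10 and Rims1 probe AJ310531, while Stx16 was lost (adjusted p = 0.0518 by limma). Calls numbered 1 with values on all 8 arrays required, 1 with exact 0 kept as a value and 1 with each array's highest value kept. There were 0 without the arrays whose code ends in r (48 members tested). Without those arrays, members with an unadjusted p under 0.05 in the turning part numbered 5 of 48, against 9 of 57. The share of all probes fell as well, to 9.8% from 13.8%, and the calls among all probes to 79 from 239. No other pathway gene passed without those arrays, against 1, which was Ppfia3 at a turning part of 3.57 without them and 3.66 with them. The members' median shared part was -0.32 without the r arrays and -0.3152 to -0.0694 without single arrays, against -0.12. Their median turning part was 0.46 as deposited, where that of all probes was 0.42 against 0.11 after centring, 0.034 with 2 values per orientation, -0.0599 with exact 0 kept and 0.01 to 0.18 without single arrays, against 0.14. Keeping the highest values turned the shared part of Rims1 probe AJ310531 to 0.18, as its missing value on replicate 3 is such a value. The 21 member results with an unadjusted p under 0.05 had 347 values under the alternatives, and no other of these changed sign. Of members with an unadjusted p of 0.05 or more, 24 of 45 changed sign at least once in the shared part and 30 of 48 in the turning part. None of those was larger than 0.58 in size. With the array code number as a replicate block (consensus correlation 0.0089), 2 members passed in the turning part. Replicate numbers are not shared between orientations, but the array code number is the same for replicates 1 and 5, 2 and 7, and 3 and 8. Such arrays may be pairs, and the main fit treated all 8 arrays as separate. The causes were not tested. Without intensities, signal over background is unknown.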
